A study of Rattus norvegicus with 119 samples.

Results

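MicroRNA-126 was measured here through both strands of its hairpin, rno-miR-126 and rno-miR-126*, which are 2 of the 301 rat miRNAs in the deposited table. Both were taken by name, as the rows of the table that carry this hairpin. miR-126 is the best known miRNA of endothelial cells, the cells that line blood vessels. Its hairpin lies in an intron of Egfl7, which encodes a protein that endothelial cells secrete into the vessel wall. miR-126 is known to lower Spred1 and Pik3r2, both inhibitors of signalling downstream of VEGF, and so to favour vessel growth and stability. The other strand, miR-126*, is usually the less abundant one and is known in mice to lower the Notch inhibitor Dlk1. In an epithelial sample such as scraped urothelium, miR-126 is commonly read as a marker of blood vessels.

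The samples were urothelium, the epithelial lining of the bladder, scraped with a scalpel from the opened bladders of Sprague-Dawley rats 1 day after the last dose. Rats of both sexes were dosed by mouth every day for 3, 28 or 90 days with 0.5% methylcellulose as vehicle, with rosiglitazone maleate (10 mg/kg/day) or with pioglitazone hydrochloride. The latter was given at a lower dose of 16 mg/kg/day and a higher one of 63 mg/kg/day. Both drugs are thiazolidinediones, which activate the nuclear receptor PPAR gamma. The 4 treatments, both sexes and the 3 times make 24 groups, and the labels state 5 profiled rats of 10 dosed for each group and sex. Each array thus comes from its own animal. The animals carried no allele or transgene, and their ages are not given in the labels. For the lower pioglitazone dose the series' design text names 13 instead of the 16 mg/kg/day of the labels and protocols, which is used here.

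The RNA was labelled with Cy3 for Agilent miRNA arrays read in 1 colour, and the deposited values are log2 intensities. Of 119 arrays, 3 are labelled as failing quality control (vehicle males at day 28, replicate 2, and females given pioglitazone 16 for 28 days, replicates 1 and 5) and were left out, which left 116. Groups then held 5 arrays, except 4 each in the vehicle males and the pioglitazone 16 males at day 28, and 3 in the pioglitazone 16 females at day 28. Of 10 miRNAs known from epithelia, 7 had a mean log2 value of at least 9 over the arrays, with miR-200a the highest at 13.32. Replicate 4 of the rosiglitazone males at day 28 stood apart in them. There, 9 of the 10 lay below the other 4 arrays of its group, and 4 lay below all 115 other arrays: miR-200b (9.80), miR-200c (3.59), miR-429 (5.53) and miR-203 (3.62). The last 3 ran from 10.01 to 12.94 in the rest of that group, while miR-141 (12.64) and miR-205 (11.81) stayed bright in replicate 4. The main limma differences of miR-126 that rest on this array are given with and without it. The lists of miRNAs, their sums and most other tests include it.

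RefSeq places the hairpin of both strands on chromosome 3 of the rat build GRCr8, plus strand, at chr3:29813174-29813246, within the gene Egfl7 (chr3:29802481-29814966, plus strand). The gene of this 73-base hairpin is listed as Mir126b. The 2 mature strands are shown because they share 1 precursor and yet carry different seeds (bases 2 to 8, in capitals), the stretch by which a miRNA chooses its targets. The older array names were assigned to the arms by the miRBase naming, in which miR-126 is the 3p strand and miR-126* the 5p strand.
miR-126 (rno-miR-126a-3p): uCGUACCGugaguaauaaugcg
miR-126* (rno-miR-126a-5p): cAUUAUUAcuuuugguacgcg
miR-126b (rno-miR-126b): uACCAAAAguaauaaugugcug
The strand miR-126 lies at chr3:29813219-29813240, miR-126* lies at chr3:29813182-29813202, and 16 bases separate them. The third sequence, which has no row in the table used here, comes from a hairpin on the opposite DNA strand at chr3:29813177-29813198 and is shown because its span overlaps that of miR-126* by 17 bases. None of the 3 seeds was shared with another of the 693 mature rat miRNA names in the RefSeq table. Bases G and C made up 45.5% of miR-126 and 38.1% of miR-126*.

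On the log2 scale, miR-126 averaged 10.05 over the 116 arrays and ranked 38th of 301 miRNAs, while miR-126* averaged 4.93 and ranked 157th. Probes of different sequence do not give levels that can be set against each other, so the strands are compared below by their differences between groups. Single arrays of miR-126 ran from 4.37 to 12.63 with a median of 10.35, and its quartiles were 9.70 and 10.80. Single arrays of miR-126* ran from 3.31 to 7.10 with a median of 5.09. The tenth percentile of all miRNAs on an array lay between 3.09 and 3.60, so the lowest miR-126* values were close to the floor of the measurement, where differences are compressed. The array median of all miRNAs ranged from 3.70 to 5.66 and lay below 5 on 30 of the 116 arrays, and among these were all 4 vehicle males of day 28 and no vehicle male of day 3 or 90.

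One group stood apart, and it was a control group. In vehicle males at day 28, miR-126 was 8.58, 4.37, 4.60 and 5.36 in the 4 arrays, a mean of 5.73 ± 1.95 (SD, n = 4). In vehicle males at day 3 it was 11.46, 10.12, 9.36, 8.84 and 10.40 (mean 10.04 ± 1.0, SD, n = 5), and at day 90 it was 10.95, 11.05, 10.76, 11.57 and 10.27 (mean 10.92 ± 0.47, SD, n = 5). Each of the 4 arrays of day 28 was lower than each of the 10 arrays of the other days, and replicate 1 came closest to them.

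**Figure D1:**
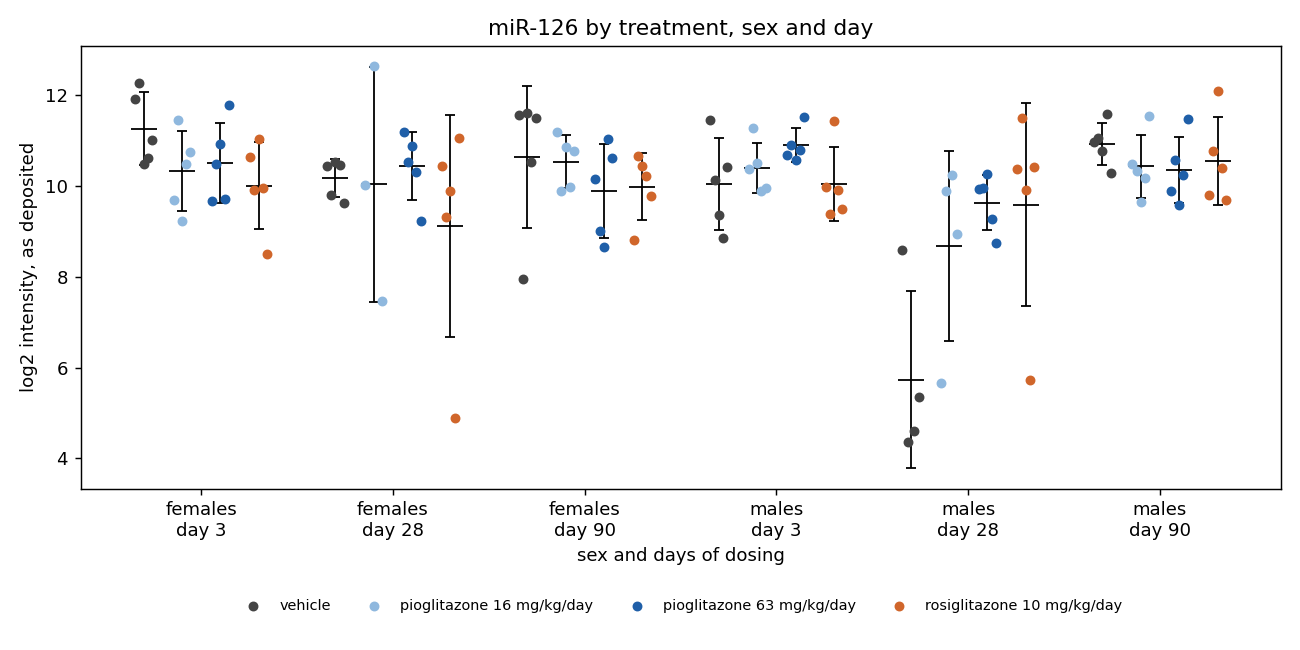
Log2 intensity of miR-126 (vertical axis) in each array, grouped by sex and days of dosing (horizontal axis) and coloured by treatment, with the group mean and SD as bars. The vehicle males at day 28 (mean 5.73) lie below the other 23 groups, whose means run from 8.68 to 11.26.

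Against the mean of days 3 and 90, miR-126 in vehicle males at day 28 was lower by a log2 difference of -4.75 (SE 0.71, limma adjusted p = 1.61e-08), a 26.9-fold lower intensity. Over all 301 miRNAs the median difference was -0.66, and 35.9% of them were called lower at an adjusted p under 0.05. miR-126 had the second lowest difference of the 301, after miR-143, a miRNA of smooth muscle, at -4.79. Among the 48 miRNAs with a mean of at least 9, 16 were called lower and none higher, and their median difference was -0.71.

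The partner strand miR-126* in the same vehicle males at day 28 was 4.60, 3.32, 3.31 and 3.36, a mean of 3.65 ± 0.64 (SD, n = 4). At day 3 its mean was 4.70 ± 0.55 and at day 90 it was 5.05 ± 0.77 (SD, n = 5 each). Replicate 1, the highest for miR-126, was also the highest for miR-126*, and it overlapped the arrays of the other days. The difference of miR-126* was -1.23 (SE 0.47, limma adjusted p = 0.0238). This call ended without replicate 3, 4 or 5 of the group (adjusted p = 0.0802, 0.0736 and 0.0754) and after the arrays were centred on their median or their 75th percentile or were quantile normalized. Once the array median entered as a covariate, the difference of miR-126* was -0.38 (adjusted p = 0.493), whereas that of miR-126 was -4.27 (adjusted p = 7.00e-07). All 4 arrays of day 28 had a median under 5 and no vehicle male of the other days did. The covariate thus separates group and array median only through 1 slope shared by all groups. The difference of miR-126 was -3.64 after median centring and -3.79 after quantile normalization (limma adjusted p = 1.29e-05 and 1.65e-08).

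**Figure D2:**
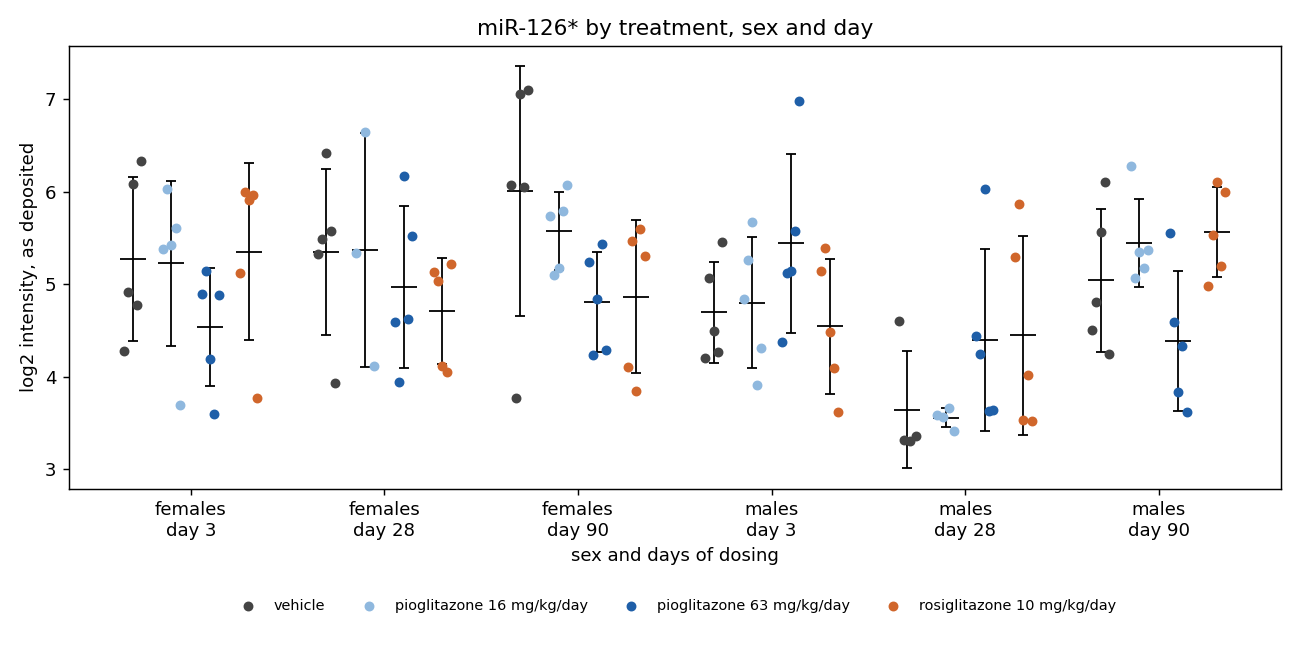
Log2 intensity of miR-126* (vertical axis) in each array, grouped and coloured by sex, days of dosing and treatment, with the group mean and SD as bars. The groups overlap widely, and the lowest means are those of the males at day 28 given pioglitazone 16 (3.56) or vehicle (3.65).

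The order of the 24 group means shows how far this group departs. For miR-126 the highest mean was that of vehicle females at day 3 (11.26) and the lowest was that of vehicle males at day 28 (5.73). Next above it stood the pioglitazone 16 males at day 28 (8.68) and the rosiglitazone females at day 28 (9.12). Of the 23 steps between neighbours in this order, only the last, of 2.95 between the pioglitazone 16 males and the vehicle males at day 28, was larger than the pooled SD of its 2 groups (2.02). For miR-126* the highest mean was that of vehicle females at day 90 (6.01). Its lowest was that of the pioglitazone 16 males at day 28 (3.56), next to the vehicle males of that day (3.65). Again 1 of 23 steps exceeded the pooled SD of its neighbours. It was the step of 0.74 from the pioglitazone 63 males at day 90 (4.39) down to the vehicle males at day 28, only slightly larger than that SD (0.71). All other neighbours in either order lay within their spread. Neighbours among sorted means lie close by construction, so this does not show that groups farther apart in the order are alike.

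The comparison of treated with vehicle rats asks whether either drug changed the miRNAs of the urothelium. In males at day 28, miR-126 was higher than vehicle with each treatment. With pioglitazone 63 mg/kg/day it was 9.93, 9.95, 10.25, 9.26 and 8.75, a mean of 9.63 ± 0.61 (SD, n = 5). All 5 arrays were above all 4 vehicle arrays. The log2 difference was 3.90 (95% interval 2.31 to 5.49, SE 0.80, limma adjusted p = 3.58e-05), a 14.9-fold higher intensity, and 21.6% of the 301 miRNAs were called higher in this comparison.

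With rosiglitazone 10 mg/kg/day, miR-126 in males at day 28 was 10.37, 11.50, 9.91, 5.73 and 10.40, a mean of 9.58 ± 2.23 (SD, n = 5). Replicate 4, the array with low epithelial miRNAs, fell within the vehicle range, and the other 4 arrays were above it. The log2 difference was 3.86 (95% interval 2.27 to 5.44, SE 0.80, limma adjusted p = 4.71e-05), the highest of all 301 miRNAs, of which 7.31% were called higher. Without replicate 4 it was 4.82 (SE 0.79, limma adjusted p = 2.47e-07). With pioglitazone 16 mg/kg/day it was 5.66, 9.89, 10.24 and 8.94, a mean of 8.68 ± 2.09 (SD, n = 4), with replicate 1 inside the vehicle range. Here the difference was 2.95 (95% interval 1.28 to 4.63, SE 0.84, limma adjusted p = 0.0153), and 4.32% of the miRNAs were called higher.

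Tested on the arrays of each comparison alone, by an exact permutation test (two-sided), the differences of miR-126 gave p = 0.0571 with pioglitazone 16, 0.0159 with pioglitazone 63 and 0.0317 with rosiglitazone. The value for pioglitazone 63 is the smallest that 5 against 4 arrays allow, and none of the 18 treated comparisons passed after adjustment over the 18 (exact test, adjusted p = 0.321, 0.286 and 0.286 for these 3). With so few arrays, these 3 comparisons could not have passed that adjustment by themselves, however large their differences. When limma was run on the compared groups alone, pioglitazone 63 kept its call (adjusted p = 0.0482), while rosiglitazone (0.121) and pioglitazone 16 (0.574) did not. The call with pioglitazone 16 also ended without vehicle replicate 3, 4 or 5 (limma adjusted p = 0.136, 0.0775 and 0.101) or without treated replicate 2 or 3 (0.0657 and 0.108).

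miR-126* did not pass in any of these 3 comparisons. With pioglitazone 16 it was 3.59, 3.57, 3.66 and 3.42 (mean 3.56 ± 0.10, SD, n = 4), a log2 difference of -0.09 (95% interval -1.21 to 1.04, limma adjusted p = 0.985). With pioglitazone 63 it was 4.45, 4.24, 6.03, 3.64 and 3.64 (mean 4.40 ± 0.98, SD, n = 5), a difference of 0.75 (95% interval -0.31 to 1.82, limma adjusted p = 0.286). With rosiglitazone it was 5.30, 5.87, 3.53, 4.02 and 3.52 (mean 4.45 ± 1.08, SD, n = 5), a difference of 0.80 (95% interval -0.27 to 1.87, limma adjusted p = 0.322), or 0.91 without replicate 4 (adjusted p = 0.272). Treated and vehicle arrays overlapped in each case. miR-126* lay near the floor in vehicle replicates 3, 4 and 5 (3.32, 3.31 and 3.36) and in all 4 pioglitazone 16 arrays. A change of this strand there could go unseen.

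**Figure D3:**
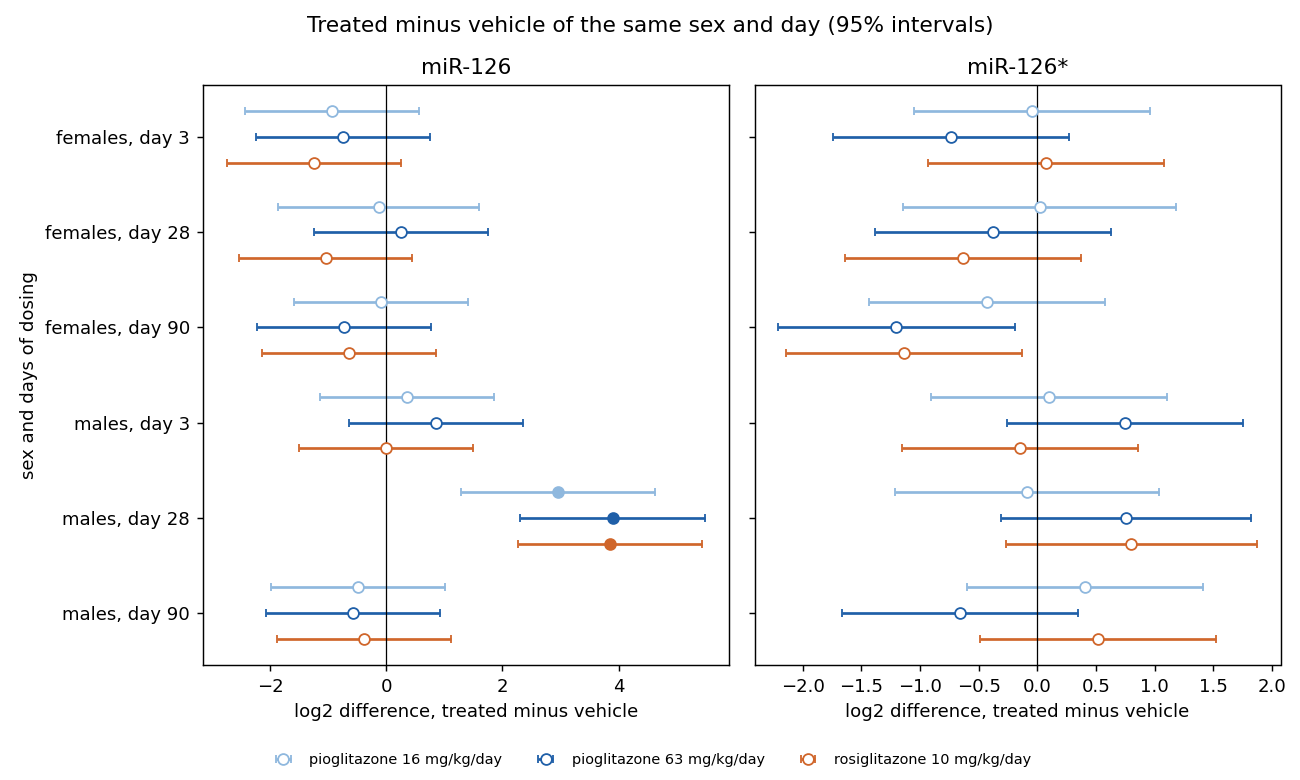
Log2 difference between treated and vehicle rats of the same sex and day (horizontal axis) for miR-126 and miR-126*, with 95% intervals from limma. Filled points have an adjusted p under 0.05, and these are the 3 differences of miR-126 in males at day 28 (2.95, 3.90 and 3.86).

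Since these comparisons share the control group that stood apart, the treated males at day 28 were also set against vehicle males of days 3 and 90, an alternative chosen after seeing the data. Against that control miR-126 was not higher with any treatment. The log2 difference was -1.80 with pioglitazone 16 (SE 0.71, limma adjusted p = 0.0447), -0.85 with pioglitazone 63 (SE 0.65, adjusted p = 0.761) and -0.89 with rosiglitazone (SE 0.65, adjusted p = 0.403). For miR-126* it was -1.31 with pioglitazone 16 (SE 0.47, limma adjusted p = 0.0276), -0.47 with pioglitazone 63 (adjusted p = 0.856) and -0.42 with rosiglitazone (adjusted p = 0.553). With pioglitazone 16, 20.6% of the 301 miRNAs were called lower against this control, so both its calls stand in a comparison where many miRNAs were called. With pioglitazone 63 and rosiglitazone together, 3.49% of tests were called in either direction, 0 of 301 with pioglitazone 63 and 21 of 301 with rosiglitazone. Without replicate 4 of the rosiglitazone males, the miR-126 difference with rosiglitazone was 0.068 (limma adjusted p = 0.981). That of miR-126* was then -0.32 (limma adjusted p = 0.876). Without the 8.58 of vehicle replicate 1 or any other single array, the calls of miR-126 with pioglitazone 63 and rosiglitazone against the vehicle males of day 28 held, and the differences ran from 3.45 to 4.85 and from 3.38 to 4.82. The lower miR-126 with pioglitazone 16 against days 3 and 90 was no longer called without treated replicate 1 (-0.79, adjusted p = 0.505), and 9 of 14 such omissions ended the call. The lower miR-126* lost its call in 5 of 14.

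Day 28 was also set against days 3 and 90 within each of the other 7 combinations of treatment and sex. For miR-126 no combination passed, and the differences ran from -1.73 in pioglitazone 16 males (SE 0.71, limma adjusted p = 0.0608) to 0.23 in pioglitazone 63 females. The difference in pioglitazone 16 males passed without replicate 2 (-2.13, adjusted p = 0.0365) or replicate 3 (-2.25, adjusted p = 0.0255) of day 28, and was -0.72 at its smallest with another array left out. For miR-126* the pioglitazone 16 males passed with -1.57 (SE 0.47, limma adjusted p = 0.00939) and the other 6 did not. In that contrast of pioglitazone 16 males 14.3% of the 301 miRNAs were called lower, and in the other 6 contrasts together 1.22% of tests were called in either direction. Of these 22 calls, 20 came from rosiglitazone females.

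In the 15 comparisons outside males at day 28, neither strand passed, and 0.288% of all tests over the 301 miRNAs were called. Of these 13 calls, 11 came from rosiglitazone males at day 3. The log2 differences of miR-126 ran from -1.25 (rosiglitazone, females, day 3) to 0.85 (pioglitazone 63, males, day 3), with 12 below 0 and 3 above. The -1.25 was the lowest of the 301 miRNAs in its comparison, with an SE of 0.75 and a limma adjusted p of 0.999. Behind it, rosiglitazone females at day 3 measured 10.64, 9.91, 11.02, 9.95 and 8.50, while vehicle females of that day ran from 10.48 to 12.27, so the groups overlapped. In these 15 comparisons the 95% interval, which is not adjusted for the 301 miRNAs, reached a median of 1.50 to either side. An observed difference below about that size does not reach an unadjusted p under 0.05, so true differences near that size could be missed. A call after adjustment could need a larger difference.

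For miR-126* the 15 differences ran from -1.20 (pioglitazone 63, females, day 90) to 0.74 (pioglitazone 63, males, day 3), and 2 of 15 had an unadjusted limma p under 0.05. These were the -1.20 and a difference of -1.14 with rosiglitazone in females at day 90. Of all 301 miRNAs, 29 and 12 had an unadjusted limma p under 0.05 in these 2 comparisons. Vehicle females at day 90 had measured 6.07, 3.77, 7.05, 6.05 and 7.10 for miR-126*, of which 7.10 was the highest value in the series. Pioglitazone 63 females of that day measured 5.24, 4.23, 4.84, 5.43 and 4.29, and rosiglitazone females 4.11, 5.47, 3.84, 5.60 and 5.31. Apart from replicate 2 at 3.77, the vehicle arrays were above every array of both treated groups.

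Averaged over the 5 combinations other than males at day 28, the log2 difference of miR-126 from vehicle was -0.26 with pioglitazone 16 (SE 0.35), -0.19 with pioglitazone 63 (SE 0.34) and -0.67 with rosiglitazone (SE 0.34). The limma adjusted p was 0.959, 0.996 and 0.878, and the unadjusted p for rosiglitazone was 0.0512. For miR-126* these means were 0.01, -0.45 and -0.27 (limma adjusted p = 0.995, 0.996 and 0.965). In these averages 0% of the miRNAs were called with limma, and 9, 11 and 14 of 301 had an unadjusted p under 0.05. Over all 6 combinations neither strand passed, while 7.31% of tests over the miRNAs were called. These were 0, 32 and 34 of 301 with pioglitazone 16, pioglitazone 63 and rosiglitazone. In this mean miR-126 lay between 0.09 and 0.49 and miR-126* between -0.25 and -0.01.

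The difference between the effect in males at day 28 and the mean effect elsewhere was tested directly. For miR-126 it was 3.21 with pioglitazone 16 (SE 0.91, limma adjusted p = 0.0166), 4.09 with pioglitazone 63 (SE 0.87, adjusted p = 7.49e-05) and 4.52 with rosiglitazone (SE 0.87, adjusted p = 1.16e-05), the last being the highest of the 301 miRNAs and 5.48 without replicate 4 of the rosiglitazone males (adjusted p = 8.31e-08). The miRNAs called higher in these tests made up 1.66%, 18.9% and 6.31% of the 301. For miR-126* the differences were -0.10, 1.20 and 1.07 (limma adjusted p = 0.964, 0.0975 and 0.204). These 3 tests use the same vehicle males of day 28 as the comparisons above. The same 5 omissions that ended the call with pioglitazone 16 in males at day 28 ended this one too, and without vehicle replicate 1 the miR-126* difference with pioglitazone 63 passed (1.52, adjusted p = 0.0392).

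Pioglitazone was given at 2 doses. In males at day 28 the higher dose had miR-126 higher by 0.95 (95% interval -0.64 to 2.53, limma adjusted p = 0.548) and miR-126* higher by 0.84 (95% interval -0.23 to 1.91, adjusted p = 0.422). In the mean of the other 5 combinations the difference was 0.07 for miR-126 (95% interval -0.62 to 0.76) and -0.45 for miR-126* (95% interval -0.92 to 0.01), each with a limma adjusted p of 0.996. No dose difference of either strand passed, and 4.49% of tests over the miRNAs did. These were 27 of 301 in males at day 28 and 0 of 301 in the mean of the other 5 combinations. The doses of pioglitazone and rosiglitazone differ from each other, so their values are given side by side and were not compared.

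Sex and age on study showed no called difference in arrays of days 3 and 90. Males minus females was 0.06 for miR-126 (SE 0.27, limma adjusted p = 0.968) and -0.22 for miR-126* (SE 0.18, adjusted p = 0.783), where 0% of all miRNAs were called and 26 of 301 had an unadjusted p under 0.05. Day 90 minus day 3 was -0.02 for miR-126 (SE 0.27, limma adjusted p = 0.994) and 0.23 for miR-126* (SE 0.18, adjusted p = 0.496), where 15% of all miRNAs were called.

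In males at day 28 the 2 strands were also compared within each array, by subtracting miR-126* from miR-126. This difference was 2.08 ± 1.33 (SD, n = 4) in vehicle males, against 5.12 ± 2.08 (SD, n = 4) with pioglitazone 16, 5.23 ± 0.61 (SD, n = 5) with pioglitazone 63 and 5.14 ± 2.03 (SD, n = 5) with rosiglitazone. The treated groups exceeded vehicle by 3.04, 3.15 and 3.05. An exact permutation test (two-sided) gave p = 0.0571, 0.0159 and 0.0476, and 0.0571, 0.0476 and 0.0571 after adjustment over the 3, so only pioglitazone 63 passed. Without replicate 4 of the rosiglitazone males the difference was 3.91 (exact p = 0.0286). miR-126* lay near the floor in 3 of the 4 vehicle arrays (3.31 to 3.36), in all 4 pioglitazone 16 arrays (3.42 to 3.66) and in several of the others. The subtraction there largely restates miR-126, and it does not show that the strands changed unequally.

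The strands were also correlated within groups. After removal of the group means, their values over the 116 arrays had a Pearson r of 0.41 (permutation within groups, p = 1e-05, the smallest that 100000 permutations can give) and a Spearman rho of 0.36 (permutation p = 0.00024). Without the 2 arrays farthest from the median of miR-126, r was 0.42. Without the males at day 28, r was 0.41 over 98 arrays (permutation p = 0.00039). It was 0.45 over the 86 arrays with a median of at least 5 (permutation p = 0.00011) and 0.29 over the 30 arrays below it (permutation p = 0.319). Within the 6 combinations of sex and day, r ran from 0.15 to 0.70. Adjusted over the 10 relations computed, the permutation p was 0.0001 for all arrays, 0.0013 without the males at day 28 and 0.00055 for the arrays of higher median. Of the 6 combinations only females at day 90 passed (r = 0.70, adjusted permutation p = 0.0397), and in the other 5 the adjusted p lay between 0.0508 and 0.553.

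**Figure D4:**
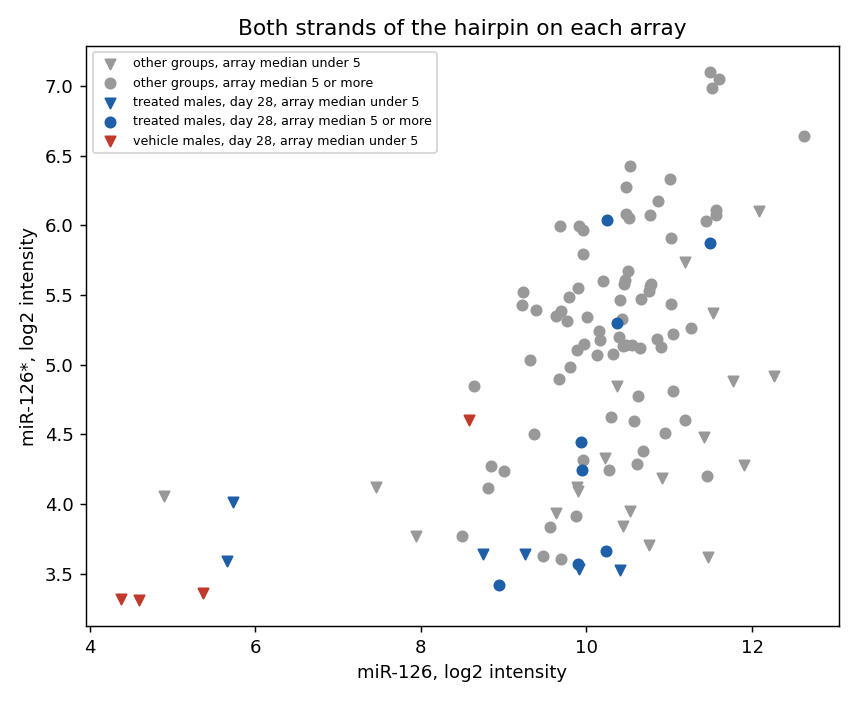
Log2 intensity of miR-126 (horizontal axis) and miR-126* (vertical axis) on each of the 116 arrays, with vehicle and treated males of day 28 coloured and arrays with a median of all miRNAs under 5 as triangles. The 8 arrays with miR-126 below 8 are all triangles.

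The array median moved with miR-126 on the lowest arrays. miR-126 lay below 8 on 8 of the 116 arrays. All 8 had an array median under 5, 7 of them were of day 28 and 5 were males of day 28. They were vehicle males of day 28, replicates 3, 4 and 5, rosiglitazone females of day 28, replicate 4 (4.90), pioglitazone 16 males of day 28, replicate 1, rosiglitazone males of day 28, replicate 4, pioglitazone 16 females of day 28, replicate 4 (7.46), and vehicle females of day 90, replicate 2 (7.95). Another 22 arrays with a median under 5 had miR-126 at 8 or more, and no array with a median of at least 5 fell below 8.50. In the 18 groups that held arrays of both kinds, those of low median had the lower miR-126 in 8 groups and the higher in 10. At day 28 they had the lower miR-126 in 6 of 7 groups, with a median difference of -2.25, while at days 3 and 90 they had it in 2 of 11, with a median difference of 0.84. For miR-126* the low-median arrays were lower in 14 of 18 groups, with a median difference of -1.09. When the array median was a covariate, the differences of miR-126 from vehicle in males at day 28 were 2.69, 3.66 and 3.77 with pioglitazone 16, pioglitazone 63 and rosiglitazone (limma adjusted p = 0.0249, 8.39e-05 and 4.28e-05). That covariate has 1 slope for all groups, although the relation of miR-126 to the array median differed between day 28 and the other days. Centred on its median, each array gave 2.35 (adjusted p = 0.0515), 3.33 and 3.66, so the call with pioglitazone 16 was lost.

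Marker miRNAs of other cell types were lower in the same vehicle males of day 28. Compared with days 3 and 90, both measured red cell miRNAs, 3 of 4 leukocyte miRNAs, 4 of 6 of the fibroblast and mesenchymal list and 2 of 5 smooth muscle miRNAs were called lower, as were 12 of 23 of a list of angiogenesis-related miRNAs. In these 5 lists none was called higher, and over all 301 miRNAs 35.9% were called lower, a share that the smooth muscle count hardly exceeds. The red cell miRNA miR-451 had a log2 difference of -3.48, the blood cell miRNA miR-142-3p of -2.69, the myeloid miRNA miR-223 of -2.48 and the mesenchymal miR-199a-3p of -4.40. Of 10 epithelial miRNAs 1 was called lower (miR-183, at -2.67) and none higher. The median differences were -3.40 for red cell, -2.43 for leukocyte, -3.48 for smooth muscle, -2.58 for fibroblast and mesenchymal, -1.97 for angiogenesis-related and 0.24 for epithelial miRNAs, against -0.66 over all 301. In scraped tissue, fewer cells of a type and less RNA per cell cannot be told apart.

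**Figure D5:**
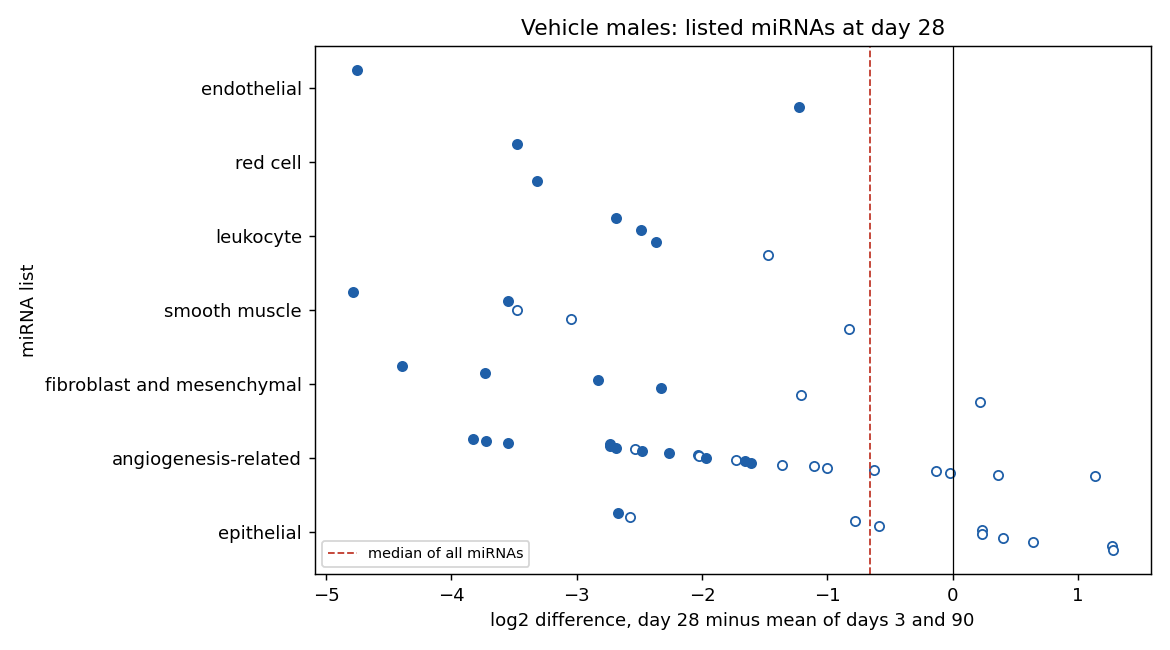
Log2 difference between vehicle males of day 28 and the mean of days 3 and 90 (horizontal axis) for each measured miRNA of 7 lists, with filled points for an adjusted p under 0.05 in limma and the median of all miRNAs (-0.66) as a dashed line. The 2 strands of the miR-126 hairpin are the endothelial points, at -4.75 and -1.23, and 7 of the 10 epithelial points are open and lie to the right of the dashed line.

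The summed signal of each list gives the level behind these counts, as log2 of the summed linear intensities. The leukocyte sum ran from 6.71 to 7.84 in vehicle males of day 28, against 9.03 to 9.90 at day 3 and 9.21 to 10.12 at day 90, with no overlap. The red cell sum ran from 4.57 to 7.73, against 9.44 to 12.22 at day 3 and 6.51 to 9.96 at day 90. The smooth muscle sum spanned 5.91 to 14.39 and overlapped both other days (11.21 to 16.29 and 10.88 to 13.35). The fibroblast and mesenchymal sum was 12.61 to 13.51, against 13.33 to 14.23 at day 3 and 13.08 to 13.33 at day 90, and overlapped both. The brightest miRNA of that list, miR-22 (mean 12.81), was not called lower (log2 difference 0.22). The epithelial sum was 15.08 to 15.83, against 12.62 to 16.23 at day 3 and 15.56 to 15.69 at day 90. No list was at 0 in any array, since the table holds no zeros. The part of these lists and of the array median in the result for miR-126 was not tested.

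The same lists were counted in the treated males of day 28 against these vehicle males. Rosiglitazone values here include replicate 4, the array with low epithelial miRNAs. With pioglitazone 63, both red cell miRNAs, 2 of 4 leukocyte, 4 of 6 fibroblast and mesenchymal, 2 of 10 epithelial and 11 of 23 angiogenesis-related miRNAs were called higher, and no smooth muscle miRNA was. Over all miRNAs the share called higher was 21.6%, so the epithelial count lies at the background. Among them were miR-451 (3.62), miR-223 (1.80), miR-199a-3p (3.20), miR-96 of the miR-183 cluster (4.43), and miR-15b (4.59) and miR-19b (4.32), the last of which belongs to the miR-17-92 cluster. With rosiglitazone, 1 of 4 leukocyte miRNAs (miR-223, 2.53) and 2 of 23 angiogenesis-related miRNAs, miR-19a (3.16) and miR-20b-5p (2.24), were called higher. Over all miRNAs 7.31% were, so the angiogenesis-related count lies near the background. Another member of the angiogenesis-related list, the p53 target miR-34a, was called lower (-1.69). No red cell, smooth muscle, fibroblast and mesenchymal or epithelial miRNA passed. With pioglitazone 16, miR-96 (5.33), miR-19b (4.35), miR-19a (2.68) and miR-221 (2.30) were called higher and no blood cell, smooth muscle or fibroblast and mesenchymal miRNA passed, where 4.32% of all miRNAs were called higher. The leukocyte sums of these treated males were 7.22 to 8.71, 7.44 to 9.35 and 6.65 to 10.95 with pioglitazone 16, pioglitazone 63 and rosiglitazone. In the same order of treatments, median differences were 0.56, 1.52 and 0.55 for the leukocyte list, 1.26, 2.74 and 0.37 for red cell, and -0.23, 1.89 and 1.88 for smooth muscle miRNAs. They were 0.37, 2.04 and 0.50 for the fibroblast and mesenchymal list, 0.60, 1.77 and 0.40 for angiogenesis-related, and 0.27, 0.27 and -0.37 for epithelial miRNAs, against 0.01, 0.37 and 0.16 over all 301.

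The miRNAs whose group means followed those of miR-126 most closely over the 24 groups were miR-101b (Pearson r = 0.89), miR-450a (0.87), miR-352 (0.86), miR-542-3p (0.85) and miR-19a (0.84). For miR-126* they were miR-223 (0.77), miR-142-5p (0.76), miR-32 (0.75), miR-667* (0.75) and miR-146a (0.73). The r between the strands themselves was 0.70, which placed miR-126* 39th in likeness to miR-126 and miR-126 14th in likeness to miR-126*. The group means share the arrays and their medians, so these values are a description. Over the 20 groups without males of day 28, miR-142-3p came closest to miR-126, with an r of 0.68, and the r between the strands was 0.39.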

How the data were processed

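The deposited table holds log2 intensities of 301 miRNAs. Per the submitters' processing notes the authors used RMA and limma; the sources used here do not give versions, background correction or filters. The arrays were not equally scaled (medians 3.70 to 5.66), no detection calls came with them, and neither array barcodes nor scan dates were given, so no batch could be tested. The number of arrays limits the precision.

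The values were used as deposited. limma 3.58.1 in R 4.3.3 fitted 1 mean for each of 24 groups over the 116 arrays labelled as passing quality control, and moderated the variances (residual degrees of freedom 92, prior 2.33). All p-values are two-sided, and within each contrast the Benjamini-Hochberg adjustment ran over all 301 miRNAs, with a threshold of 0.05. The SE of a difference rests on the variance over all 24 groups. The fit was tested on simulated data. Exact and permutation tests used Python 3.11.15 with scipy 1.17.1. No pair of arrays was identical (highest correlation 0.995).

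miRNAs most like each strand were the 5 with the highest correlation of group means. Members of a list were named where they passed in a comparison in which a strand of the hairpin passed. The members, lists and tests were chosen with earlier results of these data known. Alternatives were other scalings of the arrays, other sets of arrays or miRNAs, a replicate block, a variance prior that follows the mean, and leaving out each array in turn. Of the listed miRNAs, miR-486, miR-155, miR-296 and miR-10a had no row under these names.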

Additional observations from a re-analysis of the deposited data

Results flagged for a closer look

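Single arrays stood far from the others of their group in 6 of the 46 groups of 4 or 5 arrays examined for the 2 strands, where chance gives about 1 in 20. For miR-126 these were rosiglitazone females at day 28 (4.90), rosiglitazone males at day 28 (5.73) and rosiglitazone males at day 3 (11.42). For miR-126* they were pioglitazone 16 females at day 3 (3.70), pioglitazone 16 males at day 90 (6.28) and vehicle males at day 28 (4.60). All of these arrays but that of the pioglitazone 16 males at day 90 had an array median under 5. The 2 strands were read on the same arrays, so the groups examined are not independent. The effect of treatment on miR-126 differed between males at day 28 and the mean of the other 5 combinations of sex and day by 3.21 with pioglitazone 16, 4.09 with pioglitazone 63 and 4.52 with rosiglitazone, each by limma's test of that difference. These 3 values share the vehicle males of day 28.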

How the results depend on the processing

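Of 408 values over 46 results under 15 settings, 357 kept their direction and their side of the threshold, as did 1771 of 1844 values with 1 array left out. The few arrays of each group, the floor under miR-126* and the single control group of males at day 28 limit the results. The causes of the changes below were not tested, except that smaller fits hold fewer arrays.

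The call of miR-126 with pioglitazone 16 in males at day 28 was lost after median centring of the arrays (2.35). When the fit held only the compared groups, both this call (2.95) and that with rosiglitazone (3.86) were lost, which left 1 of 3 calls. The pioglitazone 16 difference between males at day 28 and elsewhere lost its call after median centring (2.55), with brighter miRNAs only (3.21) and with only the compared groups (3.21). The lower miR-126* of vehicle males at day 28 was not called after median centring (-0.11), quantile normalization (-0.68), 75th-percentile centring (-0.84) or with the array median as a covariate (-0.38). After 75th-percentile centring, chosen after seeing the data, miR-126* was called higher with rosiglitazone in males at day 28 (1.61, so 1 call in place of 0) and in the difference from elsewhere (1.83), lost its call in pioglitazone 16 males across days (-1.10) and turned sign with pioglitazone 16 (0.27, and 0.18 for the difference from elsewhere). With failed arrays kept, that difference from elsewhere was 0.10 and the mean of the other 5 combinations was -0.15; the latter was -0.070 without arrays of median under 5.

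Against vehicle males of days 3 and 90, the lower miR-126 with pioglitazone 16 was not called after median centring (-1.29), quantile normalization (-1.29), the covariate (-1.58), 75th-percentile centring (-1.05), in brighter miRNAs (-1.80), with only the compared groups (-1.80) or without arrays of median under 5 (-0.79). For miR-126* the first 4 of these settings gave -0.80, -0.88, -0.93 and -0.57. With rosiglitazone miR-126 turned sign after median (0.027) and 75th-percentile centring (0.30) and without arrays of median under 5 (0.46). miR-126* did so after median centring (0.50), quantile normalization (0.32), the covariate (0.27), 75th-percentile centring (0.77) and without arrays of median under 5 (0.71). With pioglitazone 63 miR-126* turned to 0.075 (median centring) and 0.036 (without arrays of median under 5). Day 90 minus day 3 of miR-126, near 0, turned to 0.098, 0.0076, 0.029, 0.11 and 0.11 under median centring, quantile normalization, covariate, 75th percentile and without arrays of median under 5, the last of which gave -0.012 for males minus females. Without those arrays no vehicle male of day 28 is left, so that comparison could not be made, and miR-126* did not enter the fit of brighter miRNAs.

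The difference between the strands passed the exact test with failed arrays kept for pioglitazone 16 (3.50, adjusted p = 0.0317) and rosiglitazone (3.52, 0.0317), and after quantile normalization for rosiglitazone (2.79, adjusted p = 0.0476). In arrays of median under 5 the correlation of the strands was 0.29.

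With 1 array left out, miR-126 ran from 2.44 to 3.96 (pioglitazone 16, males at day 28), 2.70 to 4.22 (its difference from elsewhere), -2.32 to -0.79 (against vehicle days 3 and 90), -2.25 to -0.72 (across its own days, passing without treated replicate 2 or 3), -0.063 to 1.46 (dose, males at day 28), -1.37 to 0.068 (rosiglitazone against vehicle days 3 and 90), -0.071 to 0.061 (day 90 minus day 3) and -0.023 to 0.10 (sex). The strand difference with rosiglitazone ran from 2.62 to 3.91. For miR-126* the ranges were -1.54 to -1.09 (vehicle males at day 28), -1.41 to -1.18 (pioglitazone 16 against vehicle days 3 and 90), -0.20 to 0.23 (pioglitazone 16, males at day 28), -0.22 to 0.22 (its difference from elsewhere), -0.12 to 0.13 (its mean of the other 5) and 0.79 to 1.52 (pioglitazone 63, difference from elsewhere).

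Same-numbered arrays of treated and vehicle groups did not in general deviate together (84 pairs, median r -0.02, 34 above 0.1, every pair above 0.1 in 1 of 18 comparisons). No pairing by number was thus seen, though such correlations cannot exclude one. A replicate block changed no call: miR-126 in males at day 28 was 2.95, 3.87 and 3.83 with it.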
